A study of Mus musculus with 26 samples.

Results

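The 4 Janus kinases (Jak1, Jak2, Jak3, Tyk2) and 5 signal transducers and activators of transcription (Stat3, Stat4, Stat5a, Stat5b, Stat6) were followed across the 26 libraries of a mouse haematopoietic stem cell (HSC) RNA-seq series. Members were chosen by gene symbol, and all 9 were found among the 23416 genes of the table. HSCs were sorted from bone marrow and sequenced with Smart-Seq2, a full-length method for small amounts of RNA. The groups were double-mutant HSCs with JAK2V617F and Ezh2 loss (n = 7; the label spells the first JAK2V17F), JAK2V617F HSCs (n = 7), HSCs with Ezh2 loss (n = 7) and control HSCs, labelled CTR and WT (n = 5). JAK2V617F is the activating kinase mutation of myeloproliferative neoplasms, and Ezh2 is the catalytic subunit of the Polycomb complex that methylates histone H3 to silence genes. Age, sex, strain, the promoter or Cre behind either allele, whether the JAK2V617F allele is of mouse or human sequence, and the number of cells and animals behind a library are absent from the labels used here. No label ties a group's libraries to different mice, and p-values therefore reflect the spread between these libraries, which may be partly technical.

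Janus kinases sit on the inner tails of cytokine receptors and phosphorylate each other, the receptor and the STAT proteins that dock on it. Phosphorylated STATs pair, enter the nucleus and switch on target genes, among them the Socs and Cish inhibitors that close the loop. In blood-forming cells JAK2 signals to STAT5 and STAT3, interferon and interleukin receptors use JAK1 with TYK2 or JAK3, and the mutant JAK2 signals without a cytokine. Activity is set by phosphorylation, which RNA levels do not measure.

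JAK2V617F replaces a valine in the pseudokinase domain of JAK2. The mouse Jak2 transcript is shown here around that codon because the RPKM values are per gene and cannot tell a mutant from a normal base. The window covers bases 2227 to 2271 of the 5030-base GENCODE M21 transcript, on the plus strand of chromosome 19, with the valine codon in capitals:

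Jak2, codon of the mutation: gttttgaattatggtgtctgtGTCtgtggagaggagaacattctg

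Stat5a and Stat5b, neighbours on chromosome 11, are the closest copies in the set, and their shared sequence bears on how well their levels can be separated. Of the 50-base windows of the Stat5a transcript, 15.8% also occurred in Stat5b, and of those of Stat5b 11.8% occurred in Stat5a. The longest identical run was 324 bases, all of it coding. The stretch where it ends is shown for both, as 80 bases written 5′ to 3′ with the differing base in capitals (Stat5a bases 1188 to 1267, Stat5b bases 1342 to 1421):

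Stat5a: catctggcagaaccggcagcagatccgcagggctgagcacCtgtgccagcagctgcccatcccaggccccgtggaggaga
Stat5b: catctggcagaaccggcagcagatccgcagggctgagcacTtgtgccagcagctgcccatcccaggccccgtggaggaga

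The 80 bases differ at 1 position, so a read from here rests on that base alone to tell the genes apart. How reads with more than 1 match were treated is not stated in the labels, and the split between Stat5a and Stat5b is uncertain to that extent. Of the other members, Stat4 shared 28.6% of its windows with the overlapping locus Gm28177, Jak3 shared 8.94% with Insl3, and Stat3 shared 0.38% with Stat5a, whose exons it overlaps by 72 bases on the opposite strand. Jak1, Jak2, Tyk2 and Stat6 shared 0 windows of their longest coding transcript with another gene, on either strand. Over all annotated exons, Tyk2 exons overlap those of 1700084C06Rik by 554 bases on the opposite strand (8.07% of its exon bases), Stat6 those of Nab2 by 40 and Jak1 those of Raver2 by 4. Strand handling is not stated, so reads there may come from either gene. In GRCm38 coordinates the members lie at chr4:101152367-101265282 (Jak1, minus strand), chr19:29251828-29313080 (Jak2, plus), chr8:71676296-71690575 (Jak3, plus), chr9:21104068-21131243 (Tyk2, minus), chr11:100885098-100939540 (Stat3, minus), chr1:51987148-52107189 (Stat4, plus), chr11:100859351-100885169 (Stat5a, plus), chr11:100780731-100850724 (Stat5b, minus) and chr10:127642986-127660957 (Stat6, plus).

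Library titles came in a pair of styles, with the number before the group code (15 libraries) or after it (11), and style overlapped with genotype. Number-first titles were carried by 7 of 7 double-mutant, 2 of 7 JAK2V617F, 2 of 7 Ezh2 loss and 4 of 5 control libraries, so style was fitted in the tests between genotype groups unless a fit is said to lack it or to use number-first libraries alone. Within the number-first style the 4 double-mutant libraries with title numbers 24 to 27 (replicates 3, 4, 6 and 7) stood apart. Their Actb, the cytoplasmic actin gene, was at 4147 to 5229 RPKM, against 556 to 1105 in the other 11 number-first libraries and 5059 to 10072 in number-last libraries. The 4 libraries were fully separated from those 11 at 275 of 12116 genes (2.27%), 0 of them members, and results for the double mutant are also given without them. Estimated depth was 17.3 to 29.2 M reads in double-mutant, 8.45 to 18.0 in JAK2V617F, 7.82 to 24.9 in Ezh2 loss and 12.2 to 20.3 in control libraries. All 12 HSC markers had a median of at least 1 RPKM in every group, while the summed RPKM of 10 neutrophil genes ran from 47.0 to 52098, 72.9 to 17655, 404 to 38184 and 43.5 to 388 in the 4 groups in the same order. The 9 erythroid genes had their highest median sum in Ezh2 loss libraries, at 1418 RPKM (29.7 to 6084). The sum was 5.29 to 42.1 in double-mutant, 0 to 26.5 in JAK2V617F and 5.75 to 22.3 in control libraries. The lowest Ezh2 loss sum thus lay under the highest double-mutant sum. Of the 9 genes, 4 had a median of at least 1 RPKM in Ezh2 loss, and Hbb-b2, Hba-a1 and Hba-a2 were at 0 in all its libraries. The part of the erythroid genes in the Ezh2 loss comparisons was not tested. Ezh2 RNA, the check on the labels, was at 17.4 ± 9.07 RPKM in double-mutant and 17.6 ± 8.995 in Ezh2 loss HSCs (SD, n = 7 each), against 27.1 ± 8.21 in JAK2V617F and 23.7 ± 10.4 in control HSCs. It did not pass for the double mutant (log2 difference -0.43, SE 0.42, adjusted p = 0.958) or for Ezh2 loss (-0.44, SE 0.45, adjusted p = 0.954) against control, and which part of the gene is removed is not given in the labels.

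All 9 members were expressed in these HSCs, and Jak1 and Stat4 were the most abundant. RPKM is the read count scaled to gene length and library size, so levels of different genes can be set side by side. By the median over 26 libraries the order was Jak1 at 71.4, Stat4 at 57.4, Stat3 at 23.8, Stat5a at 22.2, Stat6 at 20.7, Jak2 at 14.1, Jak3 at 9.24, Stat5b at 8.68 and Tyk2 at 3.94 RPKM. Jak1 was the highest member in 18 libraries, Stat4 in 7 and Stat5a in 1. Of the 8 neighbouring pairs in this order, 3 differed across libraries (permutation test that swaps the members of a pair within libraries, two-sided, adjusted over the 8). Jak1 lay above Stat4 in 19 of 26 libraries (adjusted p = 0.0122), Stat4 above Stat3 in 24 (adjusted p = 0.00016) and Stat5b above Tyk2 in 21 (adjusted p = 0.00632). The neighbours from Stat3 down to Stat5b did not differ beyond the spread between libraries. Jak1 led by median in double-mutant, JAK2V617F and Ezh2 loss HSCs, and Stat4 led in control HSCs. In bulk libraries a lower level can mean fewer cells of a type or less RNA per cell, and these cannot be told apart.

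**Figure D1:**
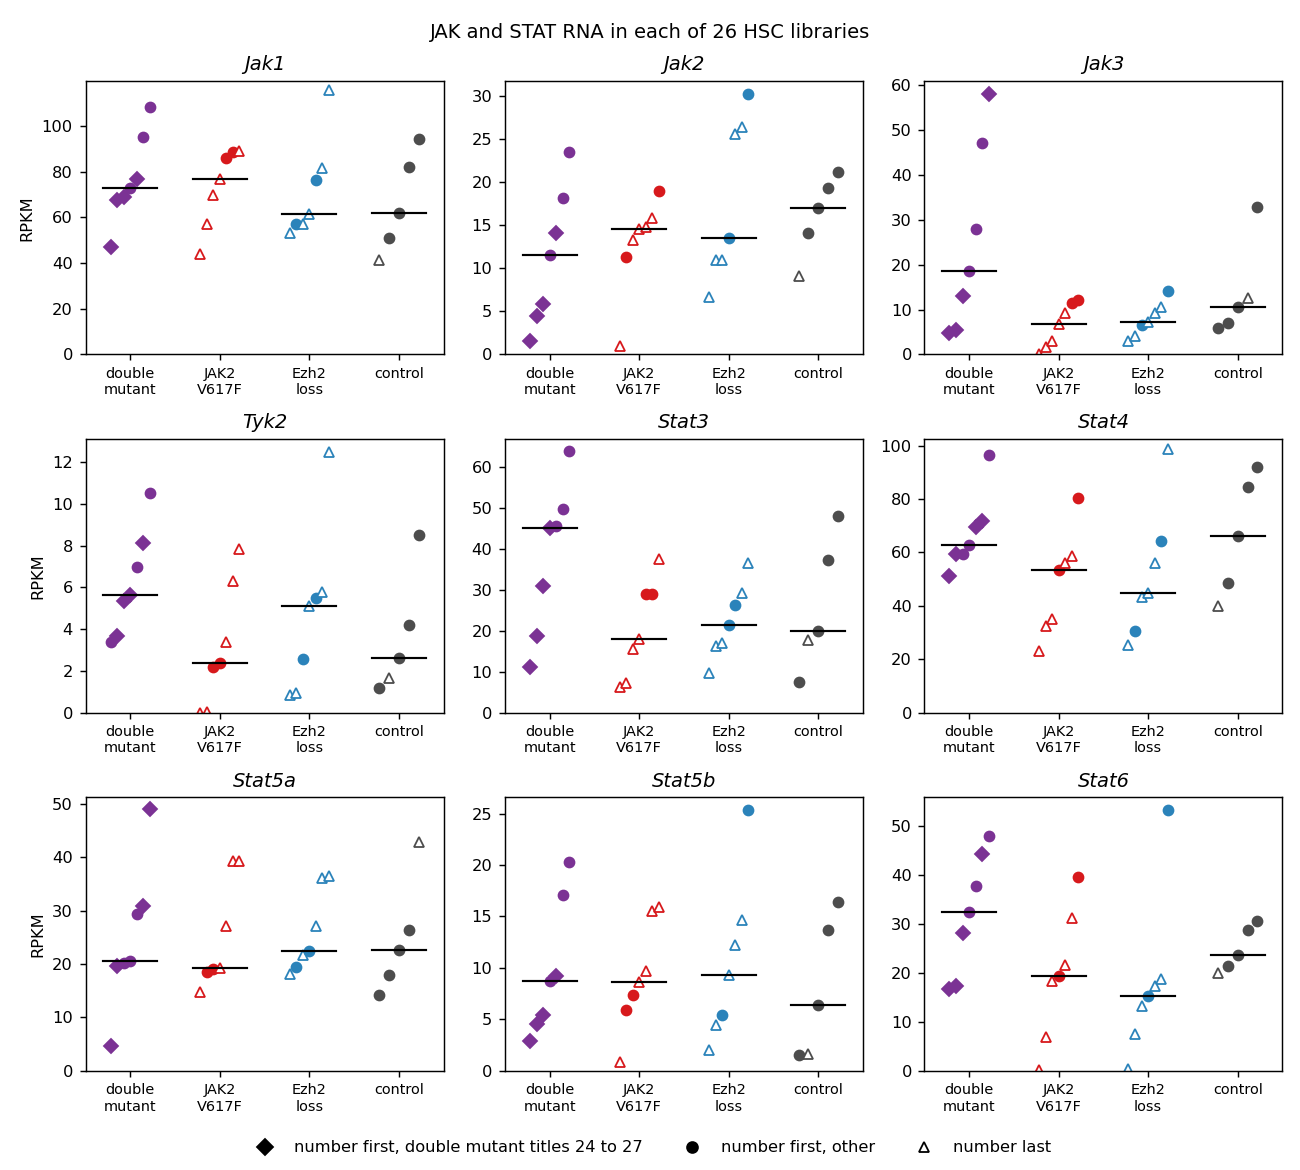
RPKM of each member (y axis, linear from 0) in every library, with double-mutant, JAK2V617F, Ezh2 loss and control HSCs from left to right. Each point is 1 library, diamonds are the 4 double-mutant libraries with title numbers 24 to 27, circles the other number-first and open triangles the number-last libraries, and bars are group medians. The ranges of the groups overlap for every member, and Jak2 in the diamonds runs from 1.57 to 14.1 RPKM.

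Jak1 was the steadiest of the kinases. It works with JAK2, JAK3 or TYK2 on interferon, interleukin and gp130 receptors. It was at 47.2, 72.8 and 108 RPKM (lowest, median, highest) in double-mutant, 44.1, 76.9 and 89.0 in JAK2V617F and 53.1, 61.3 and 116 in Ezh2 loss libraries, and at 61.7, 94.1, 81.9, 50.8 and 41.3 in control libraries. The lowest control value was its only number-last library, and the ranges overlapped throughout. After group and style were subtracted, its SD on the log2 scale was 0.39, the smallest of the 9 and smaller than in most genes of like level (24.2% of 500 such genes varied less).

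Jak2, the mouse gene of the kinase named in 2 of the genotypes, varied about as much as genes of like level. Its log2 SD within group and style was 0.99, and 59.8% of 500 such genes varied less (median SD 0.90). If the JAK2V617F allele is of human sequence, its transcripts need not be counted in the mouse Jak2 row. It was at 1.57, 11.6 and 23.5 RPKM in double-mutant libraries, at 0.996, 14.5 and 18.9 in JAK2V617F libraries and at 6.65, 13.5 and 30.3 in Ezh2 loss libraries. Control libraries had 17.0, 19.3, 14.1, 21.2 and 9.17 RPKM. The double mutant held 3 of the 5 lowest values and reached above the highest control, and in JAK2V617F a library with 81 Jak2 reads lay far under the next, at 11.4 RPKM. Against control the log2 difference was -0.88 in the double mutant (SE 0.54, adjusted p = 0.899), -0.19 in JAK2V617F (SE 0.59, adjusted p = 0.999) and 0.33 in Ezh2 loss (SE 0.59, adjusted p = 0.980). Against Ezh2 loss the double mutant was at -1.22 (SE 0.60, 95% interval -2.44 to 0.01, unadjusted p = 0.0509, adjusted p = 0.640 by limma). None of these passed.

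The 3 lowest double-mutant Jak2 values were all in libraries that stood apart. The 4 with title numbers 24 to 27 had 14.1, 4.44, 5.82 and 1.57 RPKM, against 11.6, 23.5 and 18.2 RPKM in the other 3 double-mutant libraries. Without those 4, Jak2 was level with control (log2 difference 0.00, SE 0.60, adjusted p = 0.999) and at -0.33 against Ezh2 loss (SE 0.63, adjusted p = 0.959). The mean log2 level of 6 neutrophil genes, on the log2(RPKM + 1) scale, was 7.94, 9.16, 0.546 and 2.20 in those 4 libraries in the same order, against 0.375 to 1.69 in the other 3. The library with the lowest Jak2 value had a neutrophil level of 2.20. With that level as a covariate the difference from control was -0.83 (SE 0.59, adjusted p = 0.934). The part of neutrophil transcripts and of the Actb level in the Jak2 values was not tested further.

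Jak3 and Tyk2 were the scarcer kinases. Jak3 works with JAK1 under the common gamma chain receptors of lymphocytes. It was at 4.85, 18.5 and 57.9 RPKM in double-mutant, 0, 6.71 and 12.1 in JAK2V617F and 3.04, 7.19 and 14.1 in Ezh2 loss libraries, and at 5.88, 10.5, 32.9, 6.99 and 12.6 in control libraries. The 4 double-mutant libraries over 14.1 RPKM lay above every JAK2V617F and Ezh2 loss library, and the other 3 lay within their range. The double mutant over JAK2V617F had the largest positive log2 difference of any member between 2 genotype groups, 1.195 (SE 0.68, 95% interval -0.20 to 2.59, adjusted p = 0.697), and it did not pass. In number-first libraries alone it was 0.57 (SE 0.79, adjusted p = 0.944). Without the double-mutant titles 24 to 27 it was 1.87 (SE 0.74, unadjusted p = 0.0185, adjusted p = 0.553 by limma). With the style term dropped it was 1.80 (SE 0.58, adjusted p = 0.0880 by limma), still short of the threshold. Number-first titles were carried by 7 of 7 double-mutant and 2 of 7 JAK2V617F libraries, and the part of style was not tested. Of 10 T and NK cell genes, markers of lymphocytes that use Jak3, 3 had a median of at least 1 RPKM in each group, and the 10 summed to 37.0 to 309 RPKM in double-mutant and 25.3 to 134 in JAK2V617F libraries. Of the 10, Cd3e and Cd8a were at 0 in every library of both groups, and Cd3d, Cd3g and Ncr1 also in every JAK2V617F library. Their part in the Jak3 values was not tested.

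Tyk2, the partner of JAK1 on type I interferon receptors, was the lowest member. It was at 3.38, 5.64 and 10.5 RPKM in double-mutant, 0, 2.37 and 7.82 in JAK2V617F and 0.845, 5.12 and 12.5 in Ezh2 loss libraries, and at 4.19, 1.16, 8.52, 2.61 and 1.65 in control libraries. The double mutant was the only group with every library over 3 RPKM, yet its range lay inside that of Ezh2 loss. The log2 difference of the double mutant was 0.74 against control (SE 0.59, adjusted p = 0.937) and 0.97 against JAK2V617F (SE 0.65, adjusted p = 0.773), and neither passed. In the fit without titles 24 to 27 they were 0.84 (SE 0.78, adjusted p = 0.998) and 1.07 (SE 0.83, adjusted p = 0.869).

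Stat3, which carries signals of the gp130 family, was at 11.2, 45.1 and 63.8 RPKM in double-mutant, 6.29, 17.8 and 37.4 in JAK2V617F and 9.67, 21.4 and 36.4 in Ezh2 loss libraries. In control libraries it was at 7.53, 37.2, 48.0, 19.9 and 17.8 RPKM. The median of the double mutant was the highest of the 4 groups, and 2 of its libraries lay above every control value. The log2 difference of the double mutant was 0.46 against control (SE 0.47, adjusted p = 0.958) and 0.50 against JAK2V617F (SE 0.52, adjusted p = 0.877). Without titles 24 to 27 the first became 1.11 (SE 0.55, unadjusted p = 0.0564, adjusted p = 0.998 by limma), with 45.5, 63.8 and 49.6 RPKM in the remaining double-mutant libraries. With the style term dropped, the Stat3 difference from JAK2V617F was 0.91 (SE 0.44, adjusted p = 0.267 by limma). The part of style in it was not tested. Stat3 did not pass in any of these fits.

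Stat4, best known from interleukin 12 signalling in T and NK cells, was nevertheless the most abundant STAT of the set and the steadiest after Jak1 (SD 0.51 on the log2 scale). It was at 51.2, 62.7 and 96.6 RPKM in double-mutant, 22.9, 53.4 and 80.4 in JAK2V617F and 25.4, 44.9 and 98.6 in Ezh2 loss libraries, and at 84.6, 92.0, 48.4, 66.3 and 40.1 in control libraries. The lowest double-mutant library lay above the lowest of each other group, and the ranges overlapped. The log2 difference of the double mutant from control was -0.02 (SE 0.30, 95% interval -0.64 to 0.60). With titles 24 to 27 left out it was 0.09 (SE 0.40, adjusted p = 0.998). The 10 T and NK cell genes summed to 37.0 to 309 RPKM in double-mutant, 25.3 to 134 in JAK2V617F, 13.2 to 634 in Ezh2 loss and 25.8 to 259 in control libraries. Of the 10, 3 had a median of at least 1 RPKM in each group. Cd3e was at 0 in every library of each group, and Cd3g and Ncr1 in every JAK2V617F, Ezh2 loss and control library. The part of the T and NK cell genes in the Stat4 values was not tested.

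Stat5a and Stat5b are the STATs that mutant JAK2 is best known to activate in blood cells. Stat5a was at 4.56, 20.6 and 49.1 RPKM in double-mutant, 14.7, 19.3 and 39.4 in JAK2V617F and 18.2, 22.5 and 36.5 in Ezh2 loss libraries, and at 17.9, 26.4, 22.6, 14.1 and 42.8 in control libraries. Group medians lay within 19.3 to 22.6 RPKM. Stat5b was at 2.88, 8.73 and 20.3 RPKM in double-mutant, 0.849, 8.62 and 15.9 in JAK2V617F and 2.002, 9.29 and 25.4 in Ezh2 loss libraries, and at 1.503, 13.7, 16.4, 6.37 and 1.64 in control libraries. Of their summed RPKM, Stat5a made up 70.7 ± 12.7% in double-mutant, 75.0 ± 11.98% in JAK2V617F and 72.7 ± 16.01% in Ezh2 loss HSCs, against 76.3 ± 17.0% in control HSCs (SD, n = 7, 7, 7 and 5). The sum was 34.6 ± 16.7, 34.5 ± 13.7 and 36.5 ± 9.52 RPKM in the 3 mutant groups in that order, and 32.7 ± 11.8 RPKM in control. The log2 difference of the double mutant from control was -0.02 for Stat5a (SE 0.39, 95% interval -0.81 to 0.78) and 0.36 for Stat5b (SE 0.62, 95% interval -0.90 to 1.63). Without titles 24 to 27 they were 0.11 (SE 0.38) and 1.13 (SE 0.77), both with adjusted p = 0.998 by limma. Stat5b averaged 5.53 ± 2.67 RPKM in those 4 libraries and 15.4 ± 5.97 RPKM in the other 3 double-mutant libraries, in which Stat5a made up 61.3 ± 7.81% of the sum. In Ezh2 loss against control Stat5b was at 0.77 (SE 0.67, adjusted p = 0.935), and with the neutrophil gene level as a covariate at 1.80 (SE 0.75, unadjusted p = 0.0241, adjusted p = 0.777 by limma). That neutrophil level ran from 2.04 to 7.67 in Ezh2 loss and from 0 to 1.71 in control libraries. The ranges did not overlap, so the value with the covariate compares these groups at a neutrophil level that they do not share.

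Stat6, the STAT of interleukin 4 and 13, was the most variable member. It was at 16.8, 32.4 and 48.0 RPKM in double-mutant, 0.156, 19.4 and 39.5 in JAK2V617F and 0.271, 15.2 and 53.1 in Ezh2 loss libraries, and at 30.5, 28.7, 23.6, 21.4 and 19.997 in control libraries. Control libraries were close together, while both single mutants held a library with only a few Stat6 reads, 5 in JAK2V617F and 9 in Ezh2 loss. Its log2 SD within group and style was 1.25, larger than in 89.8% of 500 genes of like level. The log2 difference of the double mutant from control was 0.01 (SE 0.66, adjusted p = 0.998), and without titles 24 to 27 it was 0.38 (SE 0.86, adjusted p = 0.998). In number-first libraries it averaged 30.4 ± 11.95 RPKM, against 14.1 ± 9.55 in number-last libraries (SD, n = 15 and 11). This style difference of 1.32 (SE 0.58, unadjusted p = 0.0302, adjusted p = 0.158 by limma) had the smallest unadjusted p of any member in that fit, and it did not pass.

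Across the 7 genotype contrasts, 0 of 9 members passed at adjusted p under 0.05 by limma, and 0 had an unadjusted p under 0.05. The background was low: the share of all 12116 tested genes that passed was 0.00825% for the double mutant against control, 0% for JAK2V617F and for Ezh2 loss against control, 0.033% for the double mutant against JAK2V617F, 0% against Ezh2 loss, 0.099% for JAK2V617F against Ezh2 loss and 0% for the interaction (the double mutant minus both other mutants plus control). A count of 0 among 9 members is thus near the background in each contrast. It was also 0 in the fits named above, where the share of all genes passing differed. With no style term 2.26% of genes passed for the double mutant against JAK2V617F, 0.702% against Ezh2 loss, 0.0743% for JAK2V617F against Ezh2 loss and 1.77% for the interaction. In number-first libraries 0.066% passed for the double mutant against Ezh2 loss. Without titles 24 to 27, 0.0495% passed for the double mutant against JAK2V617F, 0.0165% against Ezh2 loss, 0.00825% against control and for the interaction, 0% for JAK2V617F against control, 0.033% for Ezh2 loss against control and 0.14% for JAK2V617F against Ezh2 loss. With the neutrophil covariate 0% passed for the double mutant and for Ezh2 loss against control. With all 7 double-mutant libraries, no member separated without overlap in a comparison of 2 genotype groups. Of all genes 0.388%, 0.264% and 0.388% did so for the double mutant, JAK2V617F and Ezh2 loss against control, 0.801% and 0.578% for the double mutant against JAK2V617F and Ezh2 loss, and 0.116% for JAK2V617F against Ezh2 loss. Without titles 24 to 27 the 3 remaining double-mutant libraries lay above all control libraries for 1 of 9 members (Stat6), where 5.49% of all genes were separated in either direction. They lay above all JAK2V617F libraries and above all Ezh2 loss libraries for 2 of 9 members (Jak3 and Stat3 in both). Of all genes 7.31% and 5.41% were separated there. Overlap was judged on RPKM with no style term. The 3 double-mutant libraries were all number-first, whereas number-last titles made up 5 of 7 libraries in each single mutant. By the fitted style term Jak3 (log2 difference 0.85) and Stat3 (0.57) were higher with number-first titles, and neither passed. The part of style in these separations was not tested. The smallest unadjusted p of a member in each contrast ran from 0.0509 to 0.294. The intervals are wide: for Jak2, double mutant against control, 0.250 to 1.17 times control remained inside the 95% interval on the RPKM + 1 scale, and for Jak1 0.800 to 1.60 times. The comparisons against control share the control libraries, so their values are given side by side and not as separate evidence.

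**Figure D2:**
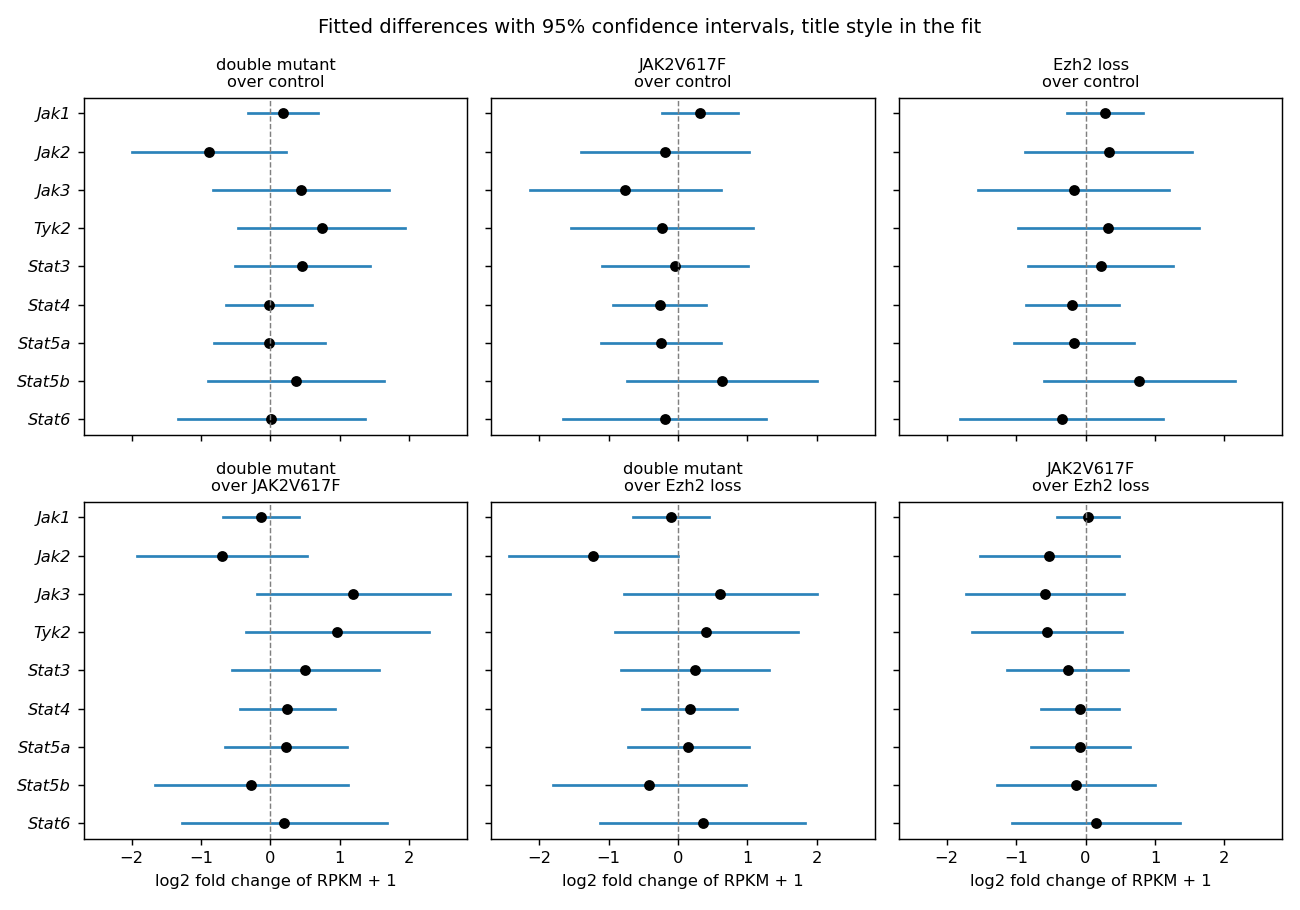
Fitted log2 difference of RPKM + 1 (x axis) of the 9 members (y axis) in 6 contrasts, with title style in the fit. Points are limma estimates and bars 95% confidence intervals; every bar crosses 0, and the one nearest to excluding it is Jak2 in the double mutant over Ezh2 loss, at -1.22.

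JAK2V617F against Ezh2 loss is balanced for style, since each group held 2 number-first and 5 number-last libraries. It is not balanced for the erythroid genes, which summed to 0 to 26.5 RPKM in JAK2V617F and 29.7 to 6084 RPKM in Ezh2 loss libraries, and their part was not tested. Nor is it balanced for the 10 neutrophil genes. Their sum had a median of 86.2 RPKM (72.9 to 17655) in JAK2V617F and 14675 RPKM (404 to 38184) in Ezh2 loss libraries. In this comparison 7 of 9 members were lower and 2 higher in JAK2V617F, with a median log2 difference of -0.14 against 0.00 over all genes and a range of -0.58 (Jak3) to 0.15 (Stat6). Jak2 was at -0.52 (SE 0.49, 95% interval -1.53 to 0.48) and Tyk2 at -0.56 (SE 0.53). With the neutrophil gene level as a covariate Jak2 was at -0.60 (SE 0.56), Jak3 at -1.02 (SE 0.61), Tyk2 at -0.88 (SE 0.59) and Stat6 at -0.02 (SE 0.68). Their adjusted p values by limma were 0.830, 0.698, 0.744 and 0.998. The interaction was at -1.03 for Jak2 (SE 0.93), 1.37 for Jak3 (SE 1.06) and -1.05 for Stat5b (SE 1.06), with adjusted p of 0.912, 0.887 and 0.920 by limma. In the fit without the covariate, Stat6 at 0.15 was well under its SE of 0.59. The other member estimates named from that fit were near their SE in size, with Jak3 in the interaction somewhat above it.

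By title style itself, 8 of 9 members were higher in number-first libraries (7 of 9 with quantile normalization), with a median log2 difference of 0.54, against 60.9% of all genes and a median of 0.17. The background share of genes passing for style was 11%, and 0 of 9 members passed. When the number of detected genes, which also differs between the styles, was added as a covariate, the direction turned for 7 of those 8 members, Stat6 (0.49) being the exception. The fully separated share of all genes was 1.75% between styles, and 0 members were among them.

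For the double mutant against control, number-first libraries allow a comparison free of style with 7 and 4 libraries. In an exact permutation test over all 330 splits (two-sided, smallest possible p 0.00606), 0 of 9 members had p under 0.05, and the smallest was 0.145 for Jak2, at a difference of -0.94 in mean log2. With titles 24 to 27 left out, 3 and 4 libraries remain and p cannot go under 0.0571. Stat6 reached that limit, with 32.4, 37.6 and 48.0 RPKM in the 3 double-mutant libraries, against 21.4 to 30.5 in the 4 control libraries. Adjusted over the 9 members its permutation p was 0.429. Against all 5 control libraries, from which Stat6 was also separated, 5.49% of all genes were separated. With 3 and 4 libraries the 8 members other than Jak2 had differences from control above 0 in mean log2, from 0.01 (Stat4) to 1.31 (Jak3). Jak2 was at -0.05. The share of all genes above 0 was not computed for these libraries, so the count of members has no background. In the limma fit without titles 24 to 27 the median over all genes was 0.07 for the double mutant against control.

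**Figure D3:**
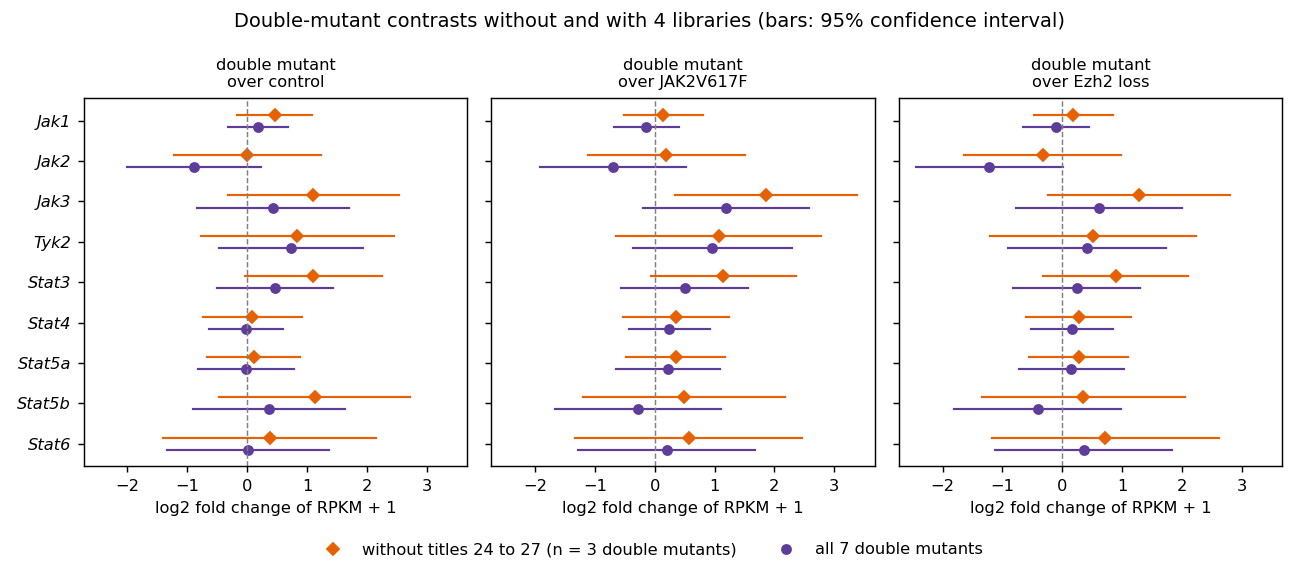
Fitted log2 difference of RPKM + 1 (x axis) of the 9 members (y axis) for the double mutant over control, JAK2V617F and Ezh2 loss. Orange diamonds leave out the 4 double-mutant libraries with title numbers 24 to 27 and purple circles hold all 7, with 95% confidence intervals; Jak2 over control is at 0.00 without them and -0.88 with them.

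The JAK RNA of these HSCs was mostly Jak1. Of the summed RPKM of the 4 kinases, Jak1 made up 66.4 ± 11.8% in double-mutant, 76.5 ± 4.75% in JAK2V617F and 70.9 ± 9.36% in Ezh2 loss HSCs, against 66.1 ± 6.27% in control HSCs (SD, n = 7, 7, 7 and 5). Its share ran from 49.0% to 86.4% over single libraries. Jak2 made up 9.49 ± 6.40%, 14.3 ± 7.15% and 16.8 ± 6.53% in the 3 mutant groups in the same order, against 17.0 ± 5.93% in control. Jak3 took 18.6 ± 12.1% in the double mutant, 5.97 ± 4.04% in JAK2V617F and 7.92 ± 3.81% in Ezh2 loss HSCs, against 13.4 ± 7.80% in control. In the double mutant the largest Jak3 share, 41.1%, was in replicate 6, the library with the smallest Jak1 share. In the 3 double-mutant libraries outside titles 24 to 27, Jak1 made up 62.7 ± 3.11%, Jak2 11.9 ± 2.64% and Jak3 20.4 ± 5.34%. These shares were not tested, and the sum itself was 119 ± 39.6, 95.3 ± 21.01 and 102 ± 30.8 RPKM in the mutant groups, against 99.5 ± 30.6 RPKM in control.

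**Figure D4:**
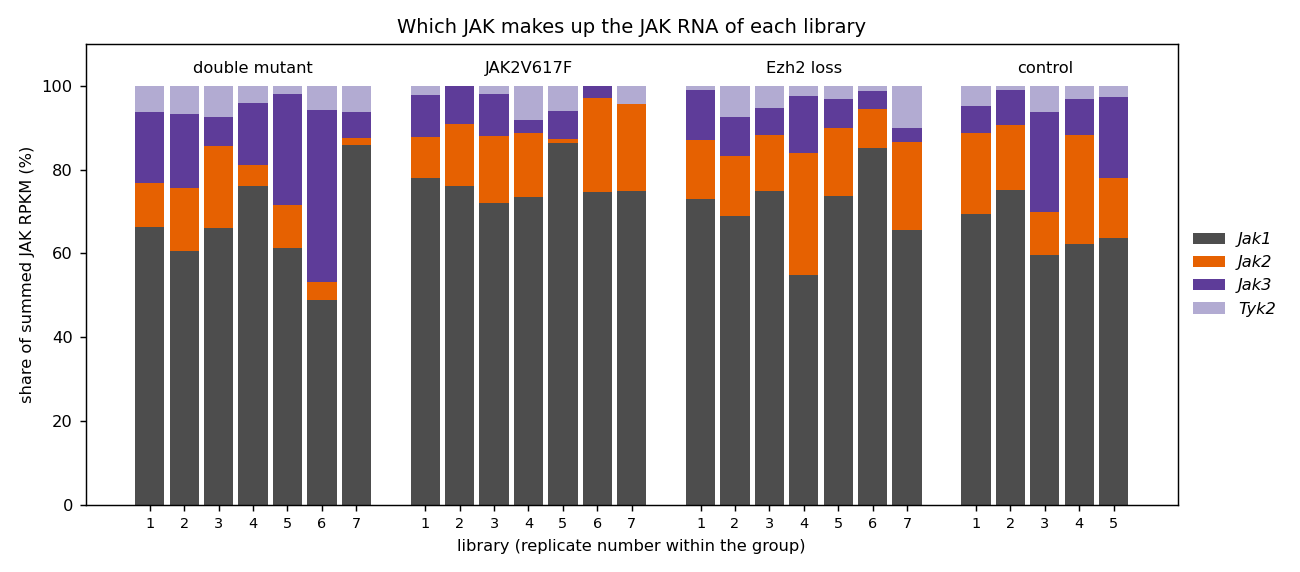
Share of the summed JAK RPKM (y axis, %) taken by Jak1, Jak2, Jak3 and Tyk2 in each library (x axis, replicate number within double-mutant, JAK2V617F, Ezh2 loss and control HSCs). Jak1 is the largest part of every bar, and the Jak3 part is widest in double-mutant replicate 6, at 41.1%.

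The levels of most pairs of members were only weakly related across libraries. For each of the 36 pairs the correlation of log2 levels over 26 libraries was computed after the mean of each title style was subtracted, with a permutation test within style (100000 resamples, two-sided, adjusted over 36). Of the pairs 28 were positive, with a median Pearson r of 0.16. By Pearson r 0 pairs passed, against 5 at unadjusted p under 0.05, and by Spearman rho 2 passed, both with Jak1. Jak1 and Stat3 had r = 0.60 (adjusted p = 0.0504) and rho = 0.62 (adjusted p = 0.0261). Within number-first libraries r was 0.69 and within number-last libraries 0.51, and it was 0.61 without the 2 libraries farthest from the Jak1 median. Jak1 and Stat5b had r = 0.56 (adjusted p = 0.0799) and rho = 0.61 (adjusted p = 0.0261), with r of 0.67 and 0.46 in the styles and 0.50 without the 2 libraries. Stat5a and Stat5b, despite their shared sequence, were at r = 0.30 (adjusted p = 0.405) and rho = 0.21 (adjusted p = 0.521). All values come from the same libraries and share their depth and scaling.

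**Figure D5:**
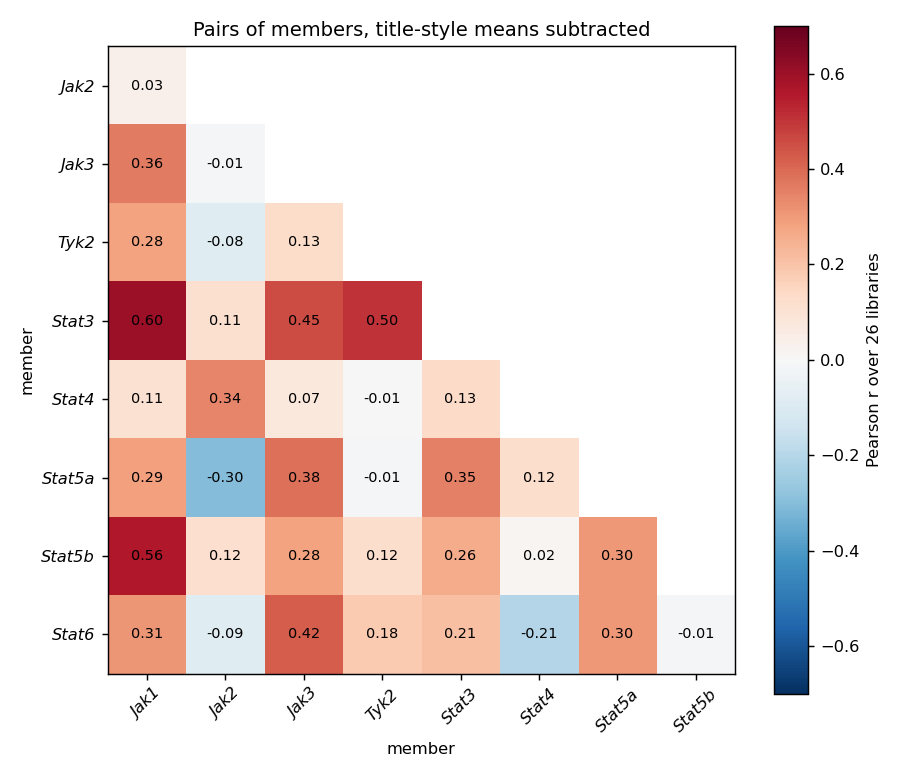
Pearson r over 26 libraries for the 36 pairs of members (both axes), from log2(RPKM + 1) with the title-style means subtracted. Red is positive and blue negative; the darkest cell is Jak1 with Stat3 (0.60), and the Jak2 column runs from -0.30 (Stat5a) to 0.34 (Stat4).

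Because Jak1 and Stat3 had the largest r, the 250 bases before their RefSeq starts are shown (build GRCm38.p6, both on the minus strand, chr4:101265224-101265473 and chr11:100939541-100939790):

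Jak1: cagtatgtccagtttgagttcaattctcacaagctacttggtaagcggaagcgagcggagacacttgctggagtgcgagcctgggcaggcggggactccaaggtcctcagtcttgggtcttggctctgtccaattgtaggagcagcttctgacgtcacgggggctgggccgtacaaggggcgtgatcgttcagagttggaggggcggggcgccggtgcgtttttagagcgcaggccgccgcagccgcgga
Stat3: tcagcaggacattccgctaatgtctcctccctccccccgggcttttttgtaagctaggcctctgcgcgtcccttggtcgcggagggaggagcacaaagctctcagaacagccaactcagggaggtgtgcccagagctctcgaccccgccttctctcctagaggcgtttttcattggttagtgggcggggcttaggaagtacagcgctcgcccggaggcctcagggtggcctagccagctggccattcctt

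These windows were 61.2% and 60.8% G or C. The STAT motif TTCNNNGAA, which is its own reverse complement, was searched in all RefSeq windows from 250 bases before to 50 after a start. It was found in 0 of the 12 windows of the 9 members and in 8.30% of all 32851 windows, which says only that these letters are not in those windows.

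For Jak2, 0 of 8 pairs passed. Its r with the other 8 members lay between -0.30 (Stat5a) and 0.34 (Stat4), and Stat4, the closest, ranked only 1037th of 12115 genes by likeness to Jak2. The 3 genes most like Jak2, by Pearson r over 26 libraries after style means were subtracted, were Pabpn1 (nuclear poly(A)-binding protein) at 0.83, Rab35 (a small GTPase of endocytic recycling) at 0.78 and Cdkn1c (a cyclin-dependent kinase inhibitor of quiescent HSCs) at 0.78. Their rank correlations were lower, at 0.62, 0.62 and 0.56. Pabpn1 ran from 11.2 to 65.3 RPKM with a median of 35.6, and its r was 0.81 within number-first and 0.86 within number-last libraries. As the top of a search over all genes, these r values carry no test.

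The surrounding pathway was described with 4 lists, and 0 of their tested genes passed in any of the 7 genotype contrasts. Receptors that signal through JAK kinases (24 tested of 33) had a median log2 difference of 0.23 in the double mutant against control, with 19 higher and 5 lower, against -0.01 over all genes. The smallest p belonged to the interferon gamma receptor Ifngr1 (0.74, SE 0.23, adjusted p = 0.485) and the G-CSF receptor Csf3r (1.24, SE 0.44, adjusted p = 0.622). Csf3r, which neutrophils also express, averaged 19.1 ± 6.77 RPKM in the double mutant and 7.59 ± 3.18 RPKM in control. Inhibitors and phosphatases (20 tested of 20) had a median of -0.02, with 10 higher and 10 lower. Ptpn6, the phosphatase SHP-1, was at 0.47 (SE 0.18, adjusted p = 0.683) and the feedback inhibitor Socs2 at -0.83 (SE 0.42, adjusted p = 0.831).

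STAT partners and adaptors (17 tested of 17) had a median of 0.22 in the same contrast, with 12 higher and 5 lower. Irf9, a transcription factor of the interferon response, was at 0.54 (SE 0.25, adjusted p = 0.770). Target genes of STAT3 and STAT5 (24 tested of 25) had a median of -0.31, with 8 higher and 16 lower, among them the cyclin Ccnd1 (-1.43, SE 0.50, adjusted p = 0.615) and the survival gene Mcl1 (-0.85, SE 0.43, adjusted p = 0.828). When titles 24 to 27 were left out, 0 genes of these lists passed for the double mutant against control by limma. An unadjusted p under 0.05 was held by 3 of 24, 0 of 20, 2 of 17 and 1 of 24 genes, against 606 of all 12116 genes. The medians were 0.23 (17 of 24 receptors higher), 0.12 (11 of 20 inhibitors), 0.59 (13 of 17 partners) and -0.04 (11 of 24 targets), against 0.07 over all genes. Socs2 was then at -0.43 (SE 0.54) and Mcl1 at -0.25 (SE 0.52), both nearer to 0 than with all libraries. Ifngr1, at 0.60 (SE 0.30), and Ptpn6, at 0.44 (SE 0.24), were slightly smaller. Csf3r at 1.59 (SE 0.55), Irf9 at 0.67 (SE 0.31) and Ccnd1 at -1.54 (SE 0.63) were larger in size than with all libraries. In JAK2V617F against control the medians were -0.25 (receptors), -0.06 (inhibitors), -0.24 (partners) and -0.20 (targets), with 5 of 24 targets higher, against -0.02 over all genes. In Ezh2 loss against control they were 0.03, -0.37, 0.05 and -0.07, against -0.03.

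By title style 10 genes of these lists passed. Among receptors Crlf2 (log2 difference 2.68, adjusted p = 2.04e-06), Il27ra (1.31, adjusted p = 0.0219) and Ifnar2 (1.04, adjusted p = 0.0291) were higher and Il2rg, the common gamma chain that works with JAK3, lower (-0.77, adjusted p = 0.0157) in number-first libraries. Among inhibitors Socs1 (2.76, adjusted p = 0.000333), Pias2 (1.24, adjusted p = 0.0422) and Pias3 (2.08, adjusted p = 0.0459) were higher. Of the targets Junb (2.02, adjusted p = 3.16e-06) and Bcl2l1 (2.20, adjusted p = 0.00814) were higher and Bcl6 lower (-1.68, adjusted p = 0.00814). That makes 4 of 24, 3 of 20 and 3 of 24 genes, against 11% of all genes, and 0 of 17 partners passed, all by limma.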

How the data were processed

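The authors deposited RPKM values, scaled to gene length and library size, as 1 column for each of 26 libraries. The submitters' processing notes name Subread 1.5.0, SAMtools 0.1.19, STAR 2.4.2a and the build mm10/GRCm38. Settings, annotation and strand handling were not stated. RPKM had already been scaled to each library's total by the authors, so a few abundant genes can shift the rest, and near-identical copies can share reads.

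Depth and reads per member were recovered from the whole-number steps of low RPKM values (313 of 325 library pairs coherent, tolerance 0.02); 0 columns were left unmapped. The 12116 of 23416 genes that reached 1 RPKM in 5 or more libraries were fitted in limma 3.58.1 (R 4.3.3) on log2(RPKM + 1), which understates changes of low genes, with 1 mean per group and title style as covariate, eBayes with trend and robust, two-sided, Benjamini-Hochberg over all tested genes, threshold 0.05. An exact permutation test and pair correlations used SciPy 1.17.1 and NumPy 2.4.6. The fit was tested on simulated data. Reads behind a value give its counting error only: 3 reads amount to at most 0.129 RPKM for any member and library.

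Groups came from the genotype label. Title numbers 2 to 5 occur in both JAK2V617F and Ezh2 loss, but same-numbered libraries did not deviate together (correlations -0.057 to 0.023). The members and lists were chosen with earlier results of these data known. Named genes are the 9 members, Ezh2, up to 4 passing genes of each list and contrast, the 2 smallest p of each list for the double mutant against control, and the 3 genes most like Jak2; 1 gene that this rule names is not reported here. Alternatives were no style term, number-first libraries, compared groups alone, pseudocounts 0.1 and 5, no filter, TPM, quantile and median ratio scaling, array weights, detected genes or neutrophil genes as covariate, and leaving out each library; leaving out titles 24 to 27 was added after the data were seen. GENCODE M21 and RefSeq gave loci and sequences.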

Additional observations from a re-analysis of the deposited data

Results flagged for a closer look

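For each member and group the lowest and highest library were set against the rest by Dixon's gap test, which flags about 1 in 20 such sets by chance. Of 36 sets, 4 had a library that stood out. Jak2 was at 0.996 RPKM in JAK2V617F replicate 5, where the gap to the next library was 0.577 of the group's range (limit 0.568 for 7 libraries). Jak3 was at 32.9 RPKM in control replicate 3 (0.750 of the range, limit 0.71 for 5 libraries). Tyk2 was at 12.5 RPKM in Ezh2 loss replicate 7 (0.578), and Stat6 at 53.1 RPKM in Ezh2 loss replicate 4 (0.650). The Stat6 and Jak3 libraries were number-first and the other two number-last.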

How the results depend on the processing

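No count of passing members moved: it was 0 in all 310 combinations of contrast and alternative, with a smallest adjusted p of 0.0712 (Stat6, title style, array weights) and, among genotype contrasts, 0.0880 (Jak3, double mutant against JAK2V617F, no style term). Of the 63 member values in genotype contrasts, 24 kept their sign in every alternative, among them Jak2 in the double mutant against Ezh2 loss (-1.47 to -0.33) and Jak3 in the double mutant against JAK2V617F (0.57 to 1.87). Jak2 in the double mutant against control ran from -1.11 to -0.56 when 1 library was left out, with -0.56 without double-mutant replicate 7, and reached 0.00 without titles 24 to 27. Jak3 in JAK2V617F against control was at 0.07 in number-first libraries, against -0.76 in all. Counts of all genes moved more: with no style term 274 passed for the double mutant against JAK2V617F (4 with it), 85 against Ezh2 loss (0) and 215 for the interaction (0), so these counts depend on the style term. Against control they were 0 (1 with it) for the double mutant and 1 (0) for JAK2V617F. Number-first libraries gave 8 for the double mutant against Ezh2 loss and 0 against JAK2V617F, TPM gave 4 for the double mutant against control and 7 against JAK2V617F, and the detected-gene covariate cut the style count to 500 from 1331. In a fit with a replicate block on title numbers 2 to 5, 1 gene and 0 members passed for JAK2V617F against Ezh2 loss. The same 8 libraries without the block gave 5 genes, and all libraries gave 12. Whether same-numbered libraries are related is not given in the labels. Group sizes of 5 to 7 limit all of this: intervals of Jak2, Jak3, Tyk2, Stat5b and Stat6 for the double mutant against control span over 2 log2 units.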

Other observations

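Of the 234 member values, 9 were under 1 RPKM, and all 9 came from number-last libraries (99 values), against 0 of 135 values in number-first libraries. They were spread over 7 libraries, and 2 libraries held a pair of them. JAK2V617F replicate 7 had 0 Jak3 reads and 5 Stat6 reads, and Ezh2 loss replicate 1 had 36 Tyk2 and 9 Stat6 reads. In JAK2V617F, Tyk2 had 0 reads in replicate 2 and 1 read in replicate 6. The median library held 486 Jak3, 329 Tyk2 and 1304 Stat6 reads. At 3 reads the level would have been 0.0869 RPKM for Jak3 in JAK2V617F replicate 7 and 0.0439 RPKM for Tyk2 in JAK2V617F replicate 2, the limits that a count of 0 allows.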
